A study of Mus musculus with 37 samples.

Results

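Lysosomal enzymes and membrane proteins were followed through ribosome-bound RNA of mouse lymph nodes and spleen. The set was a list of 43 gene symbols out of 56351 genes in the deposited table. All 43 symbols had a row. They comprised 9 genes of cysteine cathepsins and legumain, 4 of other proteases and granulin, 8 of lipid handling, 9 glycosidases, 3 sulfatases, 1 nuclease, 6 membrane proteins and 3 parts of the proton pump.

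The study used RiboTag mice, whose Rpl22, a protein of the large ribosomal subunit, gains a haemagglutinin tag once Cre has acted, so that an antibody to the tag pulls down ribosomes together with their mRNA. All mice carried the CD169 Cre knock-in on both copies (KI/KI) and were homozygous for Rpl22HA, so no group lacks either allele. The cells are labelled as cd169 macrophages, and the knock-in sits in Siglec1, the gene of CD169, a receptor of sinus macrophages. Spleen and 11 lymph node sites gave 3 libraries each: the mediastinal, iliac, inguinal, deep cervical and super cervical nodes, and the celiac, liver, ceco-colonic, ileal, jejunal and duodenal nodes. Jejunal node also gave 1 isotype control pull-down. Every library, those titled as spleen included, has the tissue label of lymph node. The age of the mice is not given in the sources used here, and the labels do not say whether the 3 libraries of a site came from separate animals, so p-values measure the spread between libraries, which may be technical.

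The lysosome is the acidic compartment in which cells break down what they engulf and recycle their own parts. Cathepsins cut proteins, glycosidases and sulfatases strip sugar chains, and lipid hydrolases work with activator proteins such as saposins, which are made from prosaposin (Psap). A proton pump, the V-ATPase, keeps the lumen acidic, and heavily glycosylated membrane proteins such as LAMP1 and LAMP2 line it. Macrophages are rich in lysosomes because they clear particles, dying cells and red cells. Many lysosomal genes carry a short palindromic element near their start, called CLEAR, which the transcription factors TFEB and TFE3 bind.

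Depth set what could be read. In 7 sites (spleen and the mediastinal, ileal, ceco-colonic, inguinal, deep cervical and super cervical nodes; called deep sites here) each library held 1000000 counts or more, from 1165831 to 69138880. The other 5 (jejunal, iliac, duodenal, liver and celiac; called shallow sites) had 222041 to 1951156, and 3 features with ribosomal sequence (Gm19220, Rn18s-rs5 and Lars2) took 15.5% to 85.6% of them, against 1.97% to 42.7% at deep sites. All 43 members passed the filter on low counts at the deep sites and 10 of 43 at the shallow ones. Siglec1 lay too low to be tested, with 0 to 3.32 CPM (counts per 1000000 counts of a library) at deep sites, so the labelled cell type could not be checked by its own gene. The knock-in sits in that gene on both copies, and its part in that level was not tested. Of 13 macrophage markers, 12 or 13 were detected at each deep node site, with summed levels from 1207 to 9247 CPM. In bulk RNA such as this, fewer cells of a type and less RNA per cell cannot be told apart.

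The promoters of the members bear on the CLEAR element. RefSeq windows of 250 bases before to 50 after the gene start (GRCm38.p6) were found for 37 of the 43 members. The 8-base core TCACGTGA, which reads the same on both strands, stood in 5 of these 37 genes (13.5%), against 1.12% of 27025 genes with a window. The shorter E-box CACGTG, which lies within that core, stood in 13 of 37 (35.1%) against 8.09% of genes. The full 10-base palindrome, the core with G before and C after it, was in none of the 37 and in 0.37% of genes. The 5 genes with the core are shown because they span a carboxypeptidase, an aspartic protease, a glycosidase, an ion channel and a pump subunit, and the capitals mark the core.
Ctsa: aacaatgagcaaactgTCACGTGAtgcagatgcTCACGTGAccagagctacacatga
Ctsd: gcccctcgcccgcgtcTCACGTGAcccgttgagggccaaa
Gla: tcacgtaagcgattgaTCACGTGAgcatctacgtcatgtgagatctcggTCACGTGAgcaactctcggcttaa
Mcoln1: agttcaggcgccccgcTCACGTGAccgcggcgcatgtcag
Atp6v0d1: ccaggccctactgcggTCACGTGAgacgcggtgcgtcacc

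On that assembly the windows lie at chr2:164833744-164833800 on the plus strand (Ctsa), chr7:142387903-142387942 on the minus strand (Ctsd), chrX:134601177-134601249 on the minus strand (Gla), chr8:3500457-3500496 on the plus strand (Mcoln1) and chr8:105566045-105566084 on the minus strand (Atp6v0d1). The core began 13 bases before the start of Ctsa and again 4 after it, 99 before that of Ctsd, 46 before that of Mcoln1 and 4 before that of Atp6v0d1. Gla had it at 228 and at 195 bases before its start. A match is a description of the letters and does not show binding.

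The members took very different shares of each library. In ileal node the 43 genes together held 1.53%, 1.83% and 1.33% of all counts, listed by library number throughout, and in mediastinal node 1.49%, 1.89% and 1.57%. Deep cervical libraries held 0.603% to 1.0%, ceco-colonic 0.621% to 0.826%, super cervical 0.447% to 0.674% and inguinal 0.413% to 0.646%. Spleen libraries held 0.0811% to 0.202%, below every one of the 18 deep node libraries. At the shallow sites the share ran from 0.0499% to 0.358%, and the isotype library had 0.0637%. The shares of the ileal and mediastinal libraries stood above all others, and these 6 were also the deepest libraries. The part of depth in these shares was not tested.

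**Figure D1:**
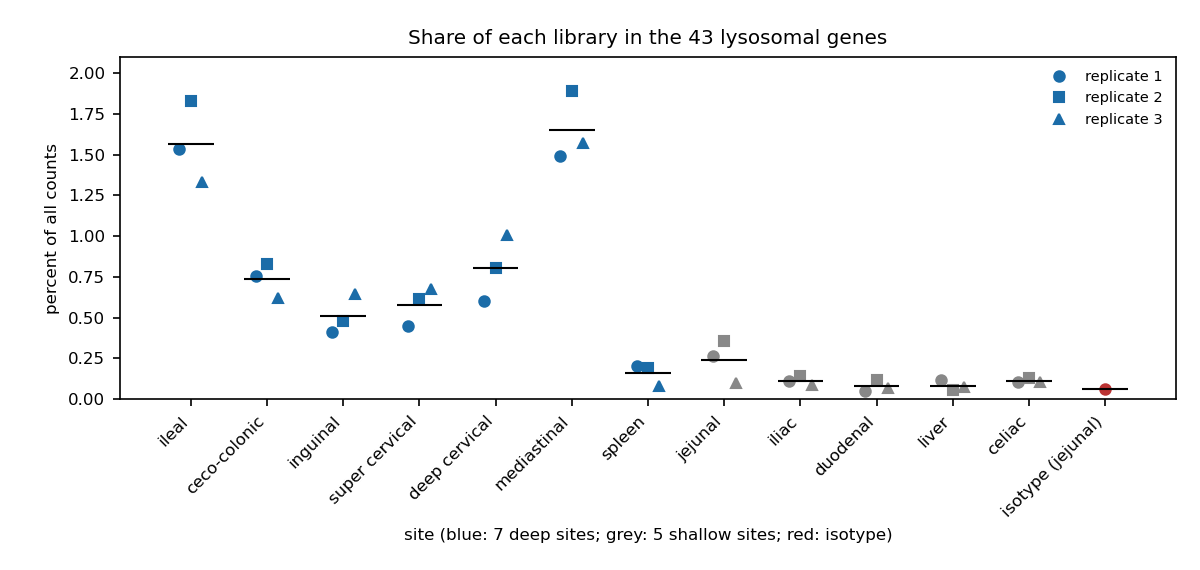
Percent of all counts in the 43 lysosomal genes, by site, for each library (symbols are replicates, short black lines site means). Ileal and mediastinal libraries sit between 1.33% and 1.89%, spleen libraries at or below 0.202%, and the shallow sites at or below 0.358%.

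Per length of the longest annotated transcript, an approximate way to set genes side by side, Psap led by far. CPM per kilobase of the longest annotated transcript averaged 1221 for Psap over the 6 deep nodes, 32.5% of the sum over the members. It was followed by the tetraspanin Cd63 (509.9), cathepsin S (Ctss, 437.3), the membrane protein Laptm5 (306.1), cathepsin D (Ctsd, 224.3) and cathepsin Z (Ctsz, 205.5). At the bottom stood cathepsin K (Ctsk, 0.97), known from bone-resorbing osteoclasts, acid ceramidase (Asah1, 1.23) and the sulfatase Arsb (1.49). Psap led in spleen too, with 34% of the members' sum. Behind it the spleen order differed, since the acid nuclease Dnase2a moved from rank 11 in the nodes to rank 2 and sialidase (Neu1) from rank 16 to 5, while cathepsin L (Ctsl) moved from rank 17 to 38. These ranks are descriptions that rest on the length used, such as 6168 bases for Ctsl and 4743 for Ctsb. Transcript usage was not measured, and a gene read mainly from shorter transcripts would be understated.

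Node sites differed from each other for most members, as they did for most genes tested. Below, CPM at deep sites are scaled by TMM, a value after ± is a standard error unless named otherwise, and adjusted p-values come from edgeR's quasi-likelihood test with Benjamini-Hochberg adjustment over all 16878 genes tested. In the test for any difference among the 6 deep nodes, 32 of the 43 members passed (74.4%), against 60.9% of all genes tested. With limma voom the shares were closer, at 76.7% of members and 72.6% of all genes. The smallest adjusted p-values belonged to the sulfatase Galns (9.94e-07), Ctsl (1.18e-05), cathepsin H (Ctsh, 3.35e-05), Lamp2 (0.000114), the pump subunit Atp6v0d1 (0.000211), cathepsin C (Ctsc, 0.000257), cathepsin F (Ctsf, 0.000308) and Lamp1 (0.000407). The 11 that did not pass were Ctsb, Lgmn, Npc1, Gla, Glb1, Manba, Neu1, Sgsh, Cd63, Mcoln1 and Atp6ap1. By mean level, mediastinal node was highest of the 6 for 27 members (27.8% of all genes had their highest mean there), ileal for 7 (5.49%), deep cervical for 4 (23.5%), ceco-colonic for 2 (10.6%), inguinal for 2 (20.8%) and super cervical for 1 (11.9%). Inguinal node had the lowest mean for 20 members (22.4% of all genes).

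**Figure D2:**
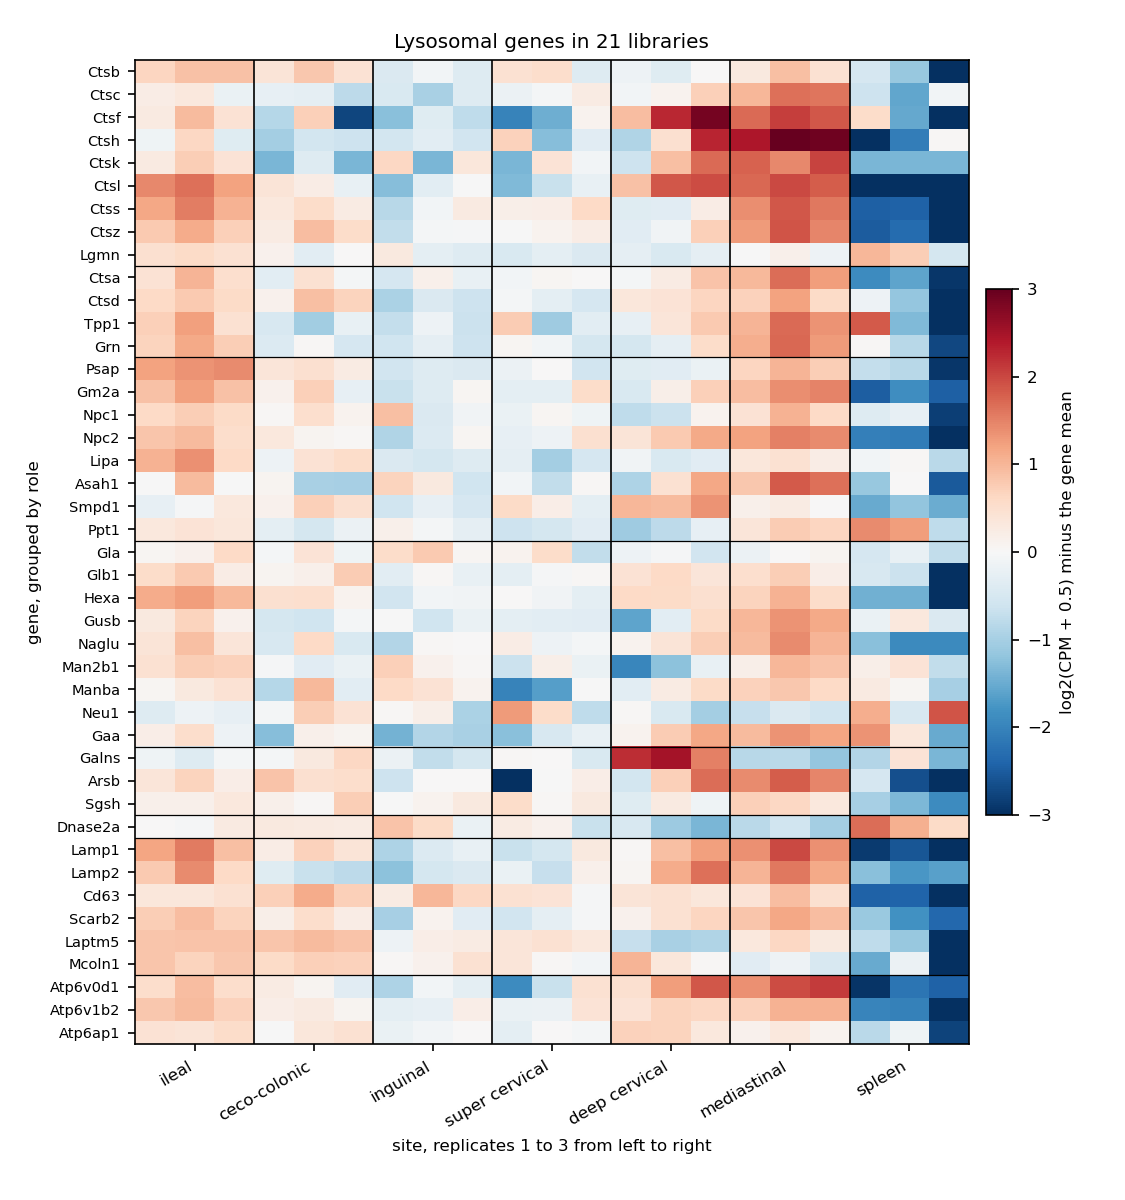
Levels of the 43 genes in the 21 deep-site libraries, as log2(CPM + 0.5) minus the mean of the gene over the libraries; colours saturate at 3 and black lines part the sites and the roles. Ileal and mediastinal columns are mostly red, the spleen columns mostly blue, and Galns is red in deep cervical node.

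The series title asks about nodes of the small intestine, and ileal node was the one such site of usable depth. Against the mean of the mediastinal, inguinal, deep cervical and super cervical nodes, which the titles tie to no digestive organ, 2 members rose in ileal node and 0 fell. That compares with 3.34% of all genes called in either direction and 1.82% called higher. Both belong to lipid handling: Psap, the precursor of the saposins that present sphingolipids to their hydrolases, and Lipa, the acid lipase that frees cholesterol from its esters. Psap stood at 5676, 6258 and 6583 CPM in the ileal libraries, at 3802 to 4924 in mediastinal node and at 1644 to 2475 in the 9 libraries of the other 3 nodes. The ileal libraries were above all 12 libraries of the comparison. The log2 fold change was 1.38 ± 0.31 (adjusted p = 0.00743).

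Lipa stood at 30.9, 38.8 and 22.4 CPM in ileal node, at 18.8, 20.3 and 17.2 in mediastinal node and at 7.0 to 13.6 in the other 3. Again no library of the 4 nodes reached the ileal ones, and the log2 fold change was 1.33 ± 0.24 (adjusted p = 0.00132). The calls leaned on single libraries. Without ileal library 2 neither gene passed (Lipa adjusted p = 0.061), and 0 of 43 members were called against 1.39% of all genes. Without ileal library 3 Lipa alone passed, where 1.48% of all genes did. The median over the 43 members was 0.42, against -0.01 over all genes, 32 of 43 values were positive, and 14 members had an unadjusted p under 0.05 (32.6%, against 12.7% of all genes). Ctsl (0.86 ± 0.29, adjusted p = 0.121), Lamp1 (0.81 ± 0.29, adjusted p = 0.163), the asparaginyl protease legumain (Lgmn, 0.72 ± 0.26, adjusted p = 0.166) and Ctss (0.84 ± 0.32, adjusted p = 0.198) were among the values that did not pass. Ctsd stood at 0.56 ± 0.35 (adjusted p = 0.584) and Ctsk at -0.28 ± 0.55 (adjusted p = 0.94).

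Markers of several cell types moved with ileal node. The summed level of the macrophage markers was 8312 to 9247 CPM in ileal node and 1207 to 4381 in the 4 others, and the scavenger receptor Marco was higher by 2.25 ± 0.44 (adjusted p = 0.00267). Of the 12 macrophage markers tested 6 were higher and 1 lower, with a median of 1.20. Lymphatic endothelial markers (4 of 8 higher, median 1.65) and plasma cell markers (3 of 6 higher, median 1.47) were up as well, and epithelial markers (7 of 7 lower, median -4.09) and mast cell markers (3 of 4 lower, median -4.79) were down. The part of these markers in the ileal levels of Psap and Lipa was not tested. A repeat with only the libraries of at least 9000000 counts, chosen after the data were seen, used 3 ileal, 3 mediastinal and 1 each of inguinal, deep cervical and super cervical node and spleen, so the lone libraries are assumed to vary like the others. There 17 members rose and 1 fell, Ctsh (-0.94 ± 0.27, adjusted p = 0.0332), while 26.4% of all genes were called (15.3% higher and 11% lower). Psap (1.44 ± 0.14, adjusted p = 0.000411) and Lipa (1.31 ± 0.19, adjusted p = 0.0023) moved little, and Lgmn, Laptm5, Hexa, Ctsb and Dnase2a were among those called, at 0.79 to 0.91. The median over the members was 0.37 in that fit, so the higher number of calls came with no larger change.

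Ceco-colonic node, which is compared with the same 4 nodes and so shares those libraries with the ileal comparison, had no member past the threshold, against 5.06% of all genes (3.32% higher and 1.74% lower). With edgeR, 7 members (16.3%) had an unadjusted p under 0.05, against 25.1% of all genes. DESeq2 called 3 (1 higher and 2 lower; 6.98%) against 11.6% of all genes, and limma voom called 0 members. In these settings the members' shares were below those of all genes. Without the filter on low counts 4.65% of members and 4.06% of all genes were called. The median was 0.02 over the members and -0.06 over all genes. With RLE scaling the members' median changed sign to -0.14, while the median of all genes fell as well. Psap stood at 3134, 3437 and 2910 CPM there (0.42 ± 0.32, adjusted p = 0.429), and Ctsl at 94.1, 85.2 and 61.9 (-0.45 ± 0.32, adjusted p = 0.388). Without deep cervical library 1, 3 members (6.98%) were called, against 10.4% of all genes.

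Set directly against ceco-colonic node, ileal node had no member past the threshold either, where 0.474% of all genes passed (0.367% higher and 0.107% lower). With edgeR 10 members (23.3%) had an unadjusted p under 0.05, against 15% of all genes. DESeq2 called 3 members, all higher in ileal node (2.11% of all genes were), and limma voom 0. The median was 0.62 over the members and 0.08 over all genes, and 35 of 43 values were positive. Ctsl (1.30 ± 0.39, adjusted p = 0.123) and Psap (0.97 ± 0.42, adjusted p = 0.281) are examples. The ileal libraries of Psap did not overlap with the ceco-colonic ones.

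Mediastinal node, which drains the chest, held more of most members than inguinal, deep cervical and super cervical nodes did. With edgeR's quasi-likelihood test 28 members rose and 1 fell, against 22.9% of all genes called higher and 21% called lower (43.9% in all). The median was 1.05 over the members and 0.07 over all genes. Those that rose were 7 of the 9 cysteine cathepsins and legumain, 4 of 4 other proteases and granulin, 7 of 8 lipid genes, 4 of 9 glycosidases, 1 of 3 sulfatases, 3 of 6 membrane proteins and 2 of 3 pump parts.

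Among the cathepsins Ctsh, an aminopeptidase known for processing surfactant protein in lung, changed most. It stood at 37.8, 59.6 and 53.0 CPM in mediastinal node, at 34.1 in deep cervical library 3 and at 2.4 to 11.1 in the remaining libraries of the 3 other nodes. The mediastinal libraries lay above all of these, with a log2 fold change of 2.77 ± 0.45 (adjusted p = 0.000113). Ctsl, an endopeptidase of broad use, stood at 239.7, 286.2 and 254.9 CPM, against 28.7 to 71.8 in inguinal and super cervical node and 133.8 to 281.0 in deep cervical node, so it overlapped only with the last (1.66 ± 0.29, adjusted p = 0.000231). Ctss, which trims the invariant chain of MHC class II, stood at 952.7, 1309 and 1086 CPM against 202.6 to 548.0, with no overlap (1.61 ± 0.32, adjusted p = 0.000576). Ctsc, which activates granule serine proteases, and Ctsz, a carboxypeptidase, rose by 1.55 ± 0.27 and 1.56 ± 0.30 (adjusted p = 0.000234 and 0.000386).

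Lamp1 rose from 57.3 to 259.3 CPM in the 9 libraries of the 3 nodes to 285.0, 437.9 and 286.9 in mediastinal node (1.58 ± 0.30, adjusted p = 0.000357), again without overlap. Atp6v0d1, a subunit of the membrane part of the pump, rose by 1.65 ± 0.32 (adjusted p = 0.000489). Granulin (Grn), a growth factor precursor that is split in lysosomes, rose by 1.62 ± 0.33 (adjusted p = 0.000662), the glycosidase Gusb by 1.43 ± 0.30 (adjusted p = 0.00083) and the GM2 activator Gm2a by 1.29 ± 0.28 (adjusted p = 0.00103). The other 18 members that rose had log2 fold changes from 0.77 to 1.71. Psap was among them (1.14 ± 0.32, adjusted p = 0.00725). Galns, a sulfatase that breaks down keratan sulfate, was the exception, at 10.1, 10.2 and 7.9 CPM (-1.47 ± 0.33, adjusted p = 0.00147).

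Lymphatic endothelial markers moved with this site, at 951 to 1119 CPM against 75 to 260 in the 3 other nodes (6 of 8 higher, median log2 fold change 1.31), and so did macrophage markers, at 3510 to 4381 CPM against 1207 to 3223 (11 of 12, median 1.59). Markers of T cells (5 of 7 higher, median 2.20), plasma cells (6 of 6, median 2.19), B cells (5 of 7, median 1.40), dendritic cells (5 of 7, median 1.14) and fibroblasts (5 of 8, median 0.73) were higher too. The lymphatic endothelial and macrophage sums lay above all libraries of the 3 other nodes. Of the lists named after them, only the dendritic list did so. The B cell sum, 1700 to 2106 CPM, was below inguinal (2151 to 2546), overlapped with super cervical (1704 to 2211) and was above deep cervical node (305 to 419). The fibroblast sum, 1125 to 1345 CPM, overlapped with inguinal (839 to 1185) and super cervical node (1018 to 1246). Of the epithelial markers 4 of 7 were lower and 2 higher. The alveolar macrophage list summed to 54 to 68 CPM against 23 to 64, and 2 of its 3 markers tested were higher (median 0.74). In mediastinal node 6 of its 7 markers were detected. The other, Ear1, was at 0 there and at every other deep site. The part of these cells in the mediastinal values was not tested. Mediastinal library 2 was the highest of the 3 for 38 members, and the share of all genes highest in it was not taken. Without that library 19 members (44.2%) were called, against 25.9% of all genes. Among libraries of at least 9000000 counts 37 members were called, 35 of them higher, with a median of 0.91, while 34.6% of all genes were called (22.3% higher).

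**Figure D3:**
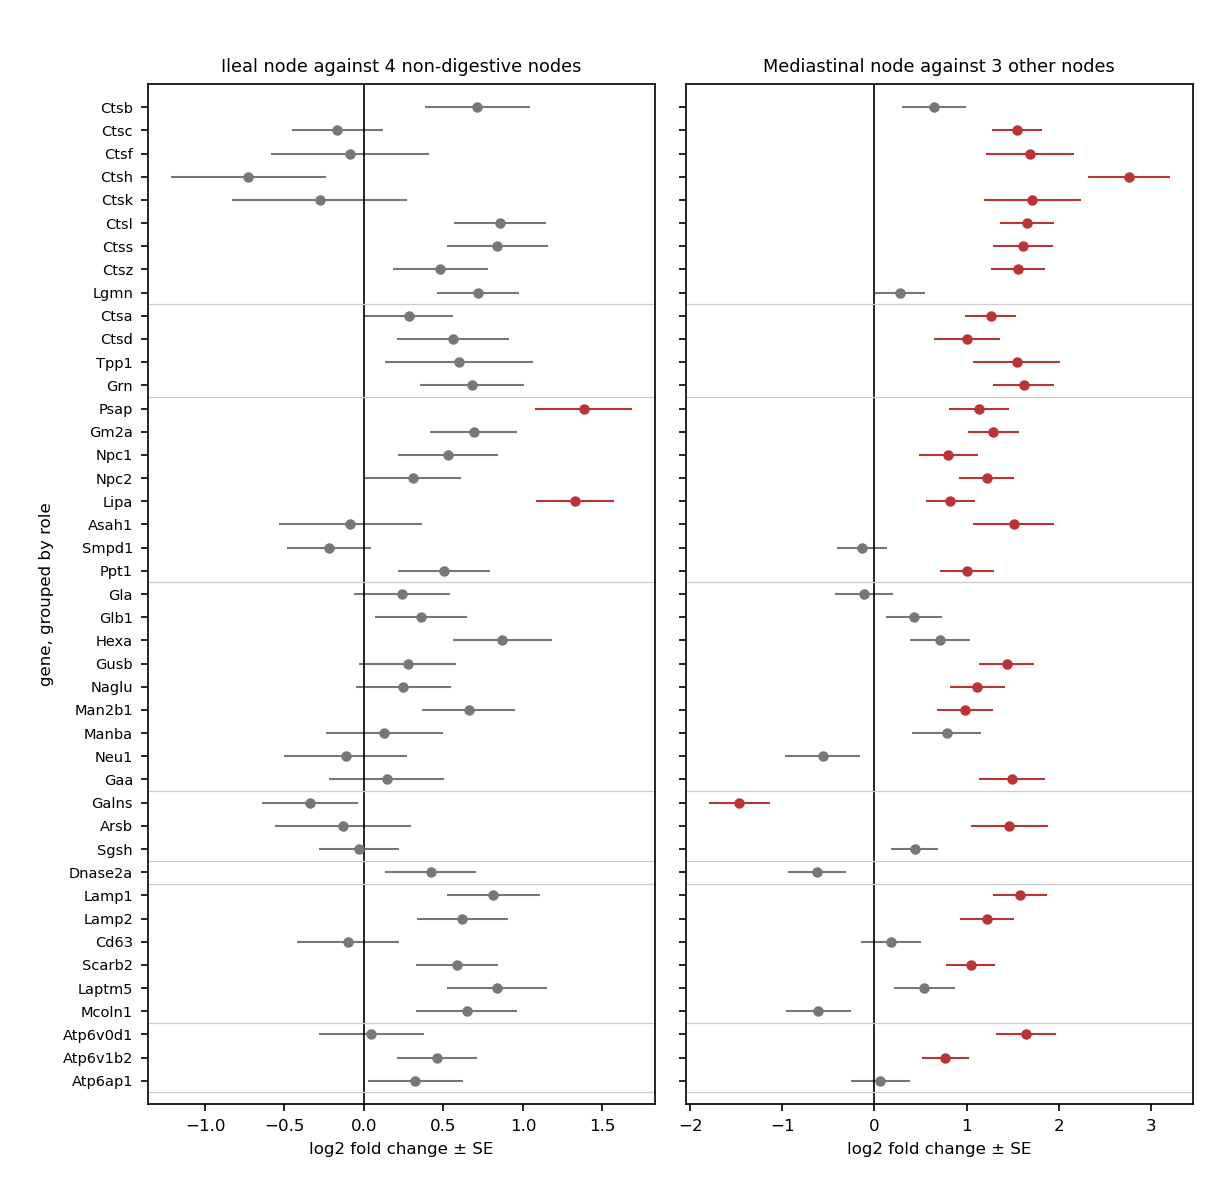
Log2 fold change with standard error for each gene in ileal node against 4 other nodes (left) and mediastinal node against 3 (right); red marks an adjusted p under 0.05 and grey lines part the roles. In ileal node Psap and Lipa are red, and in mediastinal node 28 genes are red to the right of 0 and Galns to the left.

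Deep cervical node stood out for a few members. Compared with inguinal, super cervical and mediastinal nodes, 6 members rose and 2 fell, against 18.7% and 13.8% of all genes (32.5% in all), and the medians of members and of all genes were 0.14 and -0.01. These single-node comparisons use one another's libraries as controls. Galns stood at 87.2, 105.5 and 53.0 CPM, while every other deep node library lay between 7.9 and 28.6. The groups did not overlap, and the log2 fold change was 2.69 ± 0.28 (adjusted p = 4.23e-08). Ctsf, a cathepsin of the papain family, stood at 11.7, 30.5 and 47.0 CPM against 1.1 to 6.4 in inguinal and super cervical node and 20.5 to 26.8 in mediastinal node (2.17 ± 0.48, adjusted p = 0.00107).

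Ctsl rose there by 1.39 ± 0.30 (adjusted p = 0.000759), acid sphingomyelinase (Smpd1) by 1.19 ± 0.26 (adjusted p = 0.000903), Lamp2 by 0.97 ± 0.30 (adjusted p = 0.0136) and Atp6v0d1 by 0.96 ± 0.33 (adjusted p = 0.0295). Smpd1 stood at 25.3, 24.4 and 32.2 CPM, above all libraries of the 3 other nodes, whose highest was 18.8. The mannosidase Man2b1 fell by 1.24 on the log2 scale (SE 0.35, adjusted p = 0.00782). Laptm5, a membrane protein of blood cells, stood at 372.8, 308.6 and 322.3 CPM against 545.1 to 927.2 with no overlap (-1.15 ± 0.37, adjusted p = 0.0179).

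These libraries held other tissue as well. Thyroid and parathyroid markers summed to 1653, 3854 and 14657 CPM in the deep cervical libraries and to 22 or less in the other deep nodes, erythroid markers to 6604, 5799 and 4857 against 1309 or less. B cell markers summed to 305 to 419 CPM against 1339 to 2546. Against the 3 other nodes, epithelial markers were mostly higher (5 of 7, with 1 lower, median 4.22) and T cell markers lower (7 of 7, median -2.04). Of the fibroblast markers 5 of 8 were higher and 1 lower, although their sum was lower (477 to 676 CPM against 839 to 1345). Galns was lowest in library 3, where the thyroid sum was highest, whereas Ctsf, Ctsl and Lamp2 were highest there. That library was the deepest of the 3, and 29 members were highest in it (42.7% of all genes were). The part of those tissues and cells was not tested. Without deep cervical library 2 the number of members called was 4 (19.1% of all genes were called), and without library 3 it was 5 (18.7%). Galns, Ctsf, Ctsl and Smpd1 passed under each alternative tried.

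Inguinal node, from under the skin of the groin, held less of the members. Against super cervical, deep cervical and mediastinal nodes 12 fell and 1 rose, beside 16.5% and 20.7% of all genes (37.2% in all), with medians of -0.73 over the members and -0.14 over all genes. The largest falls by p were those of Lamp2 (-1.43 ± 0.35, adjusted p = 0.00302), Ctsl (-1.39 ± 0.35, adjusted p = 0.00376), Ctsc (-1.20 ± 0.33, adjusted p = 0.00679) and the acid glucosidase Gaa (-1.64 ± 0.45, adjusted p = 0.00685). Lamp2 stood at 7.3, 12.3 and 13.1 CPM against 11 to 57.1, which overlap. Dnase2a rose, at 228.7, 189.4 and 110.2 CPM against 48.3 to 149.2 (1.08 ± 0.29, adjusted p = 0.00613). Without inguinal library 1 the calls numbered 2 (13.1% of all genes were called) and without library 2 they numbered 6 (19.3%). Of the cell type markers, erythroid (5 of 6), lymphatic endothelial (5 of 8, median -1.42), macrophage (6 of 12, median -1.03), fibroblast (4 of 8), epithelial (4 of 7) and plasma cell markers (3 of 6) were lower too, and their part was not tested. Scaling mattered here: RLE moved the median of all genes to -0.32, and 23 members were then called, against 42.1% of all genes.

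Super cervical node had 2 members lower and none higher, against 3.9% and 10.1% of all genes (14% in all). They were Ctsl (-1.66 ± 0.35, adjusted p = 0.00344), at 28.7, 45.7 and 61.8 CPM, and Atp6v0d1 (-1.18 ± 0.39, adjusted p = 0.0438), at 2.2, 5.8 and 13.4 CPM. The median was -0.45 over the members and -0.03 over all genes. Calls ran from 0 without super cervical library 2 (2.02% of all genes were called) to 6 without super cervical library 3 (23.2%) or deep cervical library 1 (19%). They numbered 1 without super cervical library 1 (4.74%), and also without library 2 or 3 of inguinal, deep cervical or mediastinal node (10.3% to 11%).

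Spleen differed from the nodes in most members, and mostly downward. Against the mean of the 6 deep nodes 29 members fell and 4 rose, beside 34.4% of all genes lower and 27.1% higher (61.5% in all). The median was -1.46 over the members and -0.35 over all genes. For 19 members all 3 spleen libraries lay below all 18 node libraries (14.5% of all genes did so), and for 0 members did they lie above (6.65%). All 6 membrane proteins and all 3 pump parts fell, as did 7 of the 9 cysteine cathepsins and legumain, 3 of 4 other proteases and granulin, 5 of 8 lipid genes, 3 of 9 glycosidases and 2 of 3 sulfatases.

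Ctsl stood at 3.2, 7.6 and 5.5 CPM in spleen against 28.7 to 286.2 in the node libraries, far below the lowest of them (-4.30 ± 0.44, adjusted p = 2.74e-08). Lamp1 stood at 14.5, 18.2 and 6.8 CPM against 57.3 to 437.9 (-3.54 ± 0.41, adjusted p = 1.42e-07). Cd63, a tetraspanin of late endosomes, stood at 71.9, 72.6 and 16.4 CPM against 374.8 to 838.1 (-3.35 ± 0.40, adjusted p = 2.53e-07). For each of these the spleen and node libraries did not overlap. Ctsz (-3.24 ± 0.39), Ctss (-3.41 ± 0.43), the cholesterol carrier Npc2 (-2.91 ± 0.39), the pump subunit Atp6v1b2 (-2.69 ± 0.33), Gm2a (-2.67 ± 0.39), the protective protein Ctsa (-2.37 ± 0.35) and the sorting receptor Scarb2 (-2.0 ± 0.33) followed, with adjusted p from 2.67e-07 to 1.39e-05. Psap stood at 1485, 1365 and 325.1 CPM against 1644 to 6583 (-1.46 ± 0.36, adjusted p = 0.00129) and Ctsd at 330.5, 164.6 and 36.9 against 191.6 to 848.2 (-1.33 ± 0.40, adjusted p = 0.00556).

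Ctsk had no count in any spleen library, and node libraries held 0 to 4.7 CPM. Since 3 counts amount to 0.312 to 2.57 CPM in the spleen libraries, no size is given for its fall, and the call was lost without spleen library 2 and without ceco-colonic library 2. Calls of Ctsc, Ctsh, Grn and Arsb were lost without spleen library 2 as well, and those of Mcoln1 and Atp6ap1 with that library alone. The 10 members that did not pass were Ctsf, Tpp1, Lipa, Asah1, Gla, Gusb, Man2b1, Manba, Gaa and Galns. Lipa stood at 13.7, 15.1 and 8.2 CPM in spleen, within the range of the nodes.

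The 4 that rose are all named here. Dnase2a, the nuclease that digests DNA of engulfed cells and of nuclei expelled by red cell precursors, stood at 405.6, 264.3 and 188.5 CPM against 48.3 to 228.7 in node libraries (1.34 ± 0.26, adjusted p = 9.95e-05). Ppt1, which removes palmitate from proteins, stood at 88.1, 78.3 and 19.1 CPM against 15.3 to 55.6 (1.05 ± 0.27, adjusted p = 0.002), and was not called without spleen library 1. Neu1, which removes sialic acid, stood at 196.3, 65.7 and 345.6 CPM against 45.4 to 224.4 (1.19 ± 0.34, adjusted p = 0.00443). Lgmn stood at 172.9, 144.2 and 60.1 CPM against 62.4 to 128.5 (0.61 ± 0.25, adjusted p = 0.0393). For each of the 4, 1 or more spleen libraries were not above all node libraries.

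Without the filter on low counts Dnase2a was the only member called higher, since Ppt1, Neu1 and Lgmn did not pass, and 30 members were lower, beside 14.5% of all genes higher and 16% lower. Neu1 changed sign with spleen library 2 alone, the deepest (-0.56, adjusted p = 0.408), and was not called without spleen library 3. Lgmn passed under 6 of 28 alternatives, with adjusted p from 0.000766 to 0.76, and Npc1, one of those that fell, under 16 of 28. With spleen library 2 alone, which is then assumed to vary like the node libraries, 29 members were called, 27 of them lower, against 35.2% of all genes called and 18.3% lower. Ctsl, Lamp1, Cd63 and Ctss were among them.

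Several other values moved with spleen. Erythroid markers summed to 12001, 77667 and 16471 CPM there, against 143 to 6604 in the nodes. Macrophage markers summed to 4375, 1353 and 265 CPM against 1207 to 9247. The third spleen library was the lowest of the 3 for 34 members, and the share of all genes lowest in it was not taken. That library also had the fewest macrophage counts and the most ribosomal ones (42.7%). Of the macrophage markers 5 of 12 were lower (median -0.77). Markers of lymphatic endothelium (5 of 8 lower, median -1.51), T cells (5 of 7, median -2.58), dendritic cells (5 of 7, with 2 higher) and plasma cells (3 of 6) were lower too. Of the B cell markers 4 of 7 were lower and 2 higher, but their sum was not lower. It stood at 2833, 3281 and 1492 CPM in spleen against 305 to 2546 in the nodes. Neutrophil markers (4 of 4 higher, median 4.66) were higher. Fibroblast markers went both ways, 3 of 8 higher and 3 lower, although their sum was lower (146 to 385 CPM against 477 to 2055). Rpl22 itself was lower in spleen, with a log2 fold change of -1.67 ± 0.35 (adjusted p = 0.000271). The part of these in the spleen values was not tested.

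**Figure D4:**
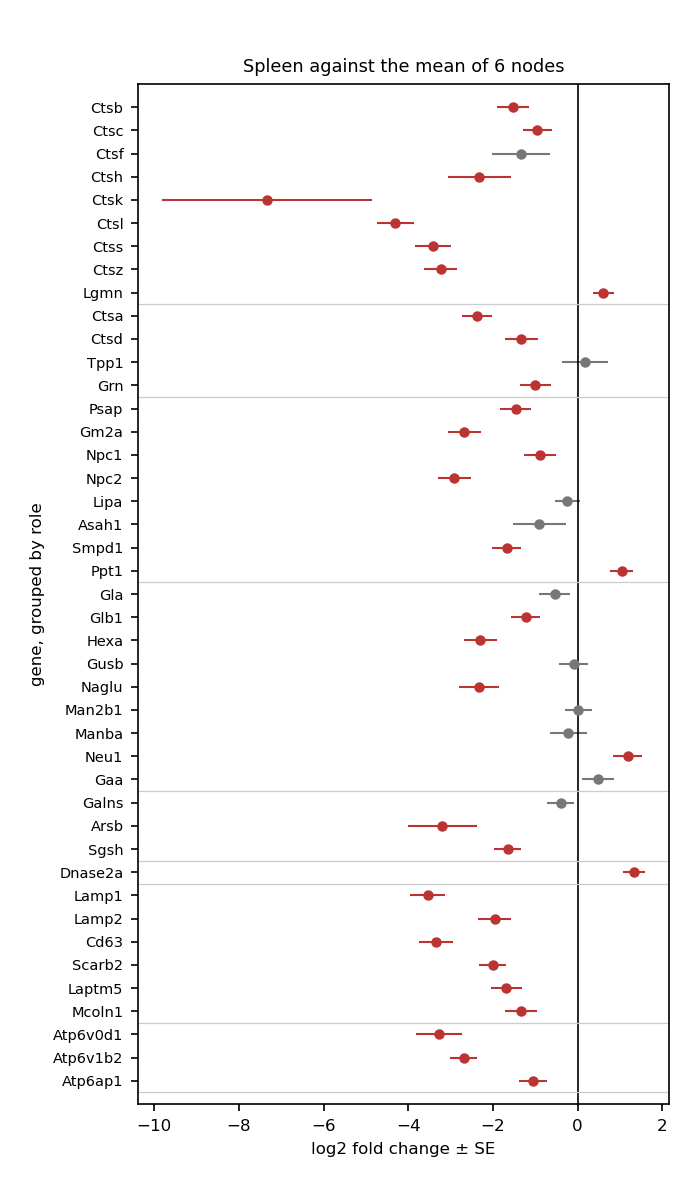
Log2 fold change with standard error of each gene in spleen against the mean of 6 deep nodes; red marks an adjusted p under 0.05. In all 29 genes are red to the left of 0, and Dnase2a, Ppt1, Neu1 and Lgmn are red to the right; the wide bar of Ctsk comes from a gene with no spleen count.

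The isotype pull-down from jejunal node shows the background of the antibody step, with 1 library and thus no test. Its 5003197 counts were more than the 495528, 1951156 and 256434 of the jejunal libraries. On plain library totals with 1 CPM added, 23 of the 36 members that passed the filter were over 2-fold higher in the jejunal mean (29.6% of all 11224 genes were) and 5 over 2-fold lower (24.5%). The median log2 ratio was 1.60 over these members and 0.01 over all genes. For 14 of them (38.9%) each jejunal library lay above the isotype one, as for 14.3% of all genes. Cathepsin B (Ctsb) stood at 195.8, 220.4 and 15.6 CPM against 5.2, a log2 ratio of 4.55. Psap stood at 1086, 1500 and 124.8 CPM against 82.1 (3.44), and Ctsd averaged 144.6 ± 118.3 CPM (SD, n = 3) against 7.0 (4.19).

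The 5 lower ones were Dnase2a, Ctsh, Ppt1, Gusb and Man2b1. Dnase2a stood at 222.5 CPM in the isotype library, above all 3 jejunal ones (133.2, 133.3 and 54.6), and made up 34.9% of the members' counts there. Ppt1 (21.2 CPM against a jejunal mean of 9.98) and Lgmn (59.6 against 35.5, a log2 ratio of -0.73 that is under 2-fold) also stood above every jejunal library. In all 6 members stood above every jejunal library (16.7%, against 31.8% of all genes). Of these Dnase2a, Ppt1 and Lgmn were among the 4 that rose in spleen, Ctsh fell there, and Gla and Gusb did not pass. The fourth that rose in spleen, Neu1, stood at 41.6 CPM in the isotype library and at 276.5, 97.4 and 569.3 in the jejunal ones. Without jejunal library 3, the shallowest, none of the members was over 2-fold lower and 24 were higher. Of all 11009 genes then passing the filter, 3346 were higher and 2954 lower. With 10 CPM added 14 members were higher and 0 lower, beside 1233 and 900 of 11224 genes. Without the 3 ribosomal features 26 were higher and 1 lower, beside 4728 and 1797 of 11221 genes. The median of all genes then moved from 0.01 to 0.67. Jejunal library 2 held most of the counts, and without it 30 members passed the filter. Of these 16 were higher and 7 lower, beside 1728 and 3476 of 9605 genes.

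At the shallow sites a single gene took much of the members' counts. Neu1, chosen here after its values were seen, held 2.72% to 75% of the members' counts in the 15 shallow libraries (median 53.4%), against 0.506% to 26.7% at deep sites (median 1.11%). On plain totals it ran from 97.4 to 762 CPM (median 426.2) against 39.8 to 217 (median 88.9), and stood at 41.6 CPM in the isotype library. It was high where the 3 ribosomal features were high: its levels in jejunal node given above came with 46.7%, 15.5% and 60.3% of counts in those features, and in spleen at 99.8, 39.8 and 217 CPM with 25.3%, 5.55% and 42.7%. Psap and Dnase2a went the other way, with medians of 149.2 and 25.9 CPM at shallow sites against 2309 and 128.1 at deep ones. The part of ribosomal sequence in the counts of Neu1 was not tested.

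**Figure D5:**
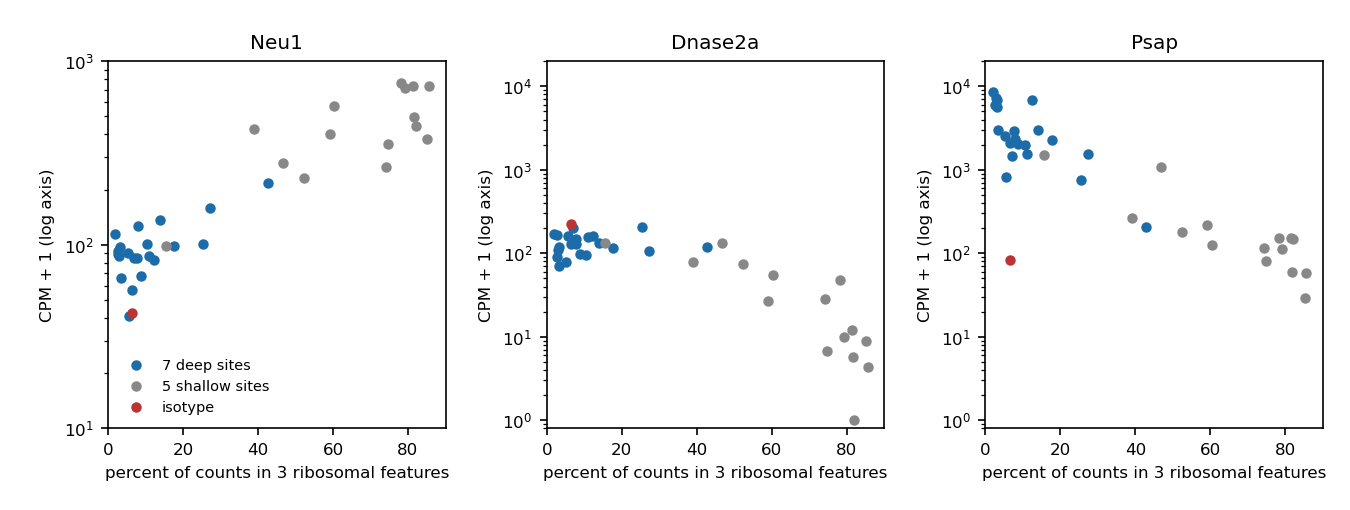
CPM on plain library totals (plus 1, log axis, with another range for Neu1) of Neu1, Dnase2a and Psap in the 37 libraries against the percent of counts in 3 ribosomal features; blue marks deep sites, grey shallow sites and red the isotype library. Neu1 is higher to the right, reaching 762 CPM, while Psap and Dnase2a are lower there.

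Jejunal and iliac nodes were compared at similar depth. Of the 10 members tested, none passed, and neither did any of the 2459 genes tested (0%). With edgeR 1 member and 40 genes had an unadjusted p under 0.05, and DESeq2 called 0 members. That member was Psap, at 629.7, 667.2 and 86.1 CPM in jejunal node, scaled over the shallow sites, and 175.8, 157.8 and 145.6 in iliac node, with a log2 fold change of 1.53 ± 0.68. The low jejunal library 3 lay under all iliac ones. The median was 0.94 over the 10 members and 0.03 over all genes, and RLE scaling moved the second to 0.34. After adjustment a difference was not detectable for any of the 10 at this depth.

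Other genes of the lysosome, from lists that hold none of the members, were read from the same tests. Of 27 other hydrolases tested, 20 fell and 1 rose in spleen, 14 rose in mediastinal node and 9 fell in inguinal node, with medians of -1.21, 1.04 and -0.60. The acid phosphatase Acp5 (2.55 ± 0.38, adjusted p = 5.89e-05) and the phospholipase Pla2g15 (2.26 ± 0.35, adjusted p = 8.34e-05) rose in mediastinal node. In ileal node Pld4, an exonuclease, rose by 1.23 ± 0.26 (adjusted p = 0.00494), as 1 of 27.

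Of 23 other lysosomal membrane proteins, 9 fell and 3 rose in spleen, and 11 rose and 1 fell in mediastinal node. The metal transporter Slc11a1 rose in ileal (1.85 ± 0.51, adjusted p = 0.0412) and mediastinal node (2.87 ± 0.56, adjusted p = 0.000471). The chloride carrier Clcn7 was higher in spleen (2.38 ± 0.32, adjusted p = 1.21e-06), inguinal node (2.25 ± 0.37, adjusted p = 0.00011) and ceco-colonic node (1.63 ± 0.36, adjusted p = 0.0154), and was the 1 that fell in mediastinal node (-2.48 ± 0.47, adjusted p = 0.000413). Of 15 other pump subunits, 10 fell in spleen, 5 rose in mediastinal node, and 4 rose and 1 fell in deep cervical node. Atp6ap2, an accessory subunit, fell in spleen (-4.01 ± 0.46, adjusted p = 1.39e-07), and Atp6v0c, the ring subunit, rose in mediastinal node (2.21 ± 0.34, adjusted p = 8.22e-05).

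Of 11 genes of mannose 6-phosphate sorting, which delivers hydrolases to the lysosome, 7 fell in spleen and 6 rose in mediastinal node. The receptors Igf2r and M6pr fell in spleen (-3.46 ± 0.56 and -3.22 ± 0.52, adjusted p = 1.25e-05 and 1.23e-05) and rose in mediastinal node (1.52 ± 0.32 and 1.97 ± 0.35, adjusted p = 0.000975 and 0.000251). The sorting receptor Sort1 rose in deep cervical node (3.14 ± 0.46, adjusted p = 8.21e-06). Of 16 regulators linked to CLEAR and to mTORC1, 12 fell in spleen, among them Tfeb (-1.90 ± 0.36, adjusted p = 7.69e-05), and 6 rose in mediastinal node.

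All 5 cathepsin inhibitors tested fell in spleen, Cst3 by -3.56 ± 0.43 (adjusted p = 2.95e-07), and 3 rose in mediastinal node, Serpina3g by 2.90 ± 0.36 (adjusted p = 1.12e-05) and the leukocyte cystatin Cst7 by 2.31 ± 0.39 (adjusted p = 0.000168). The counts of these lists are to be read beside the shares of all genes: 34.4% fell and 27.1% rose in spleen, 22.9% rose and 21% fell in mediastinal node, 18.7% rose and 13.8% fell in deep cervical node, and 16.5% fell in inguinal node.

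The 5 members with the CLEAR core shared a sign in spleen and not in mediastinal node. In spleen, Ctsa (-2.37), Ctsd (-1.33), Mcoln1 (-1.34) and Atp6v0d1 (-3.27) fell, and Gla did not pass (-0.54). Of all 43 members 29 fell there. In mediastinal node Ctsa (1.26), Ctsd (1.0) and Atp6v0d1 (1.65) rose, while Mcoln1 (-0.61) and Gla (-0.11) did not pass.

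Some counts can mix genes. In the GENCODE annotation Ctsb shares 774 exonic bases with Fdft1 on the opposite strand, Ctsa shares 495 with Pltp and 324 with Neurl2, Lamp1 shares 177 with Grtp1, Sgsh shares 955 with Card14 and Arsb shares 1948 with the noncoding Gm26527. Ctsl shares 1742 with the antisense Gm47123 and 395 with a pseudogene on its own strand, and Ctsd shares 670 with Gm49369 on its own strand. Whether the counting used strand is not given in the sources used here. Reads within the bases shared by genes on opposite strands therefore cannot be assigned with certainty. For the pairs on the same strand, strand would not part such reads.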

How the data were processed

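The authors deposited estimated counts per gene in 37 libraries. Whether these were scaled before deposit is not given in the sources used here. The submitters' processing notes name edgeR, kallisto and limma, with neither version nor role, and both GRCm39 and mm10 as builds, so no coordinates come from that table. Per the labels' protocols, a PicoPure kit gave the RNA, and its polyadenylated part was sequenced. Of the non-zero deposited values 99.3% were over 0.001 away from whole numbers, and every value was rounded. The members and lists were chosen with earlier results of these data known. Genes passing filterByExpr (at its count minimum of 10 and total of 15) were scaled with TMM and tested with edgeR 4.0.16 (robust quasi-likelihood, 1 mean per site, Benjamini-Hochberg, threshold 0.05) in R 4.3.3, in 1 model of the 21 deep-site libraries and 1 of the 15 shallow-site libraries, so CPM are not comparable between models. The deep-site model was run on simulated data for the ileal comparison alone, with a common spread for all genes. The shallow-site model was not run on simulated data. Alternatives were RLE scaling, no filter, DESeq2 1.42.0, limma 3.58.1 (voom), a replicate block, removal of 3 ribosomal features, and each library left out in turn. The comparison with the isotype library used plain totals, genes with 10 or more counts there or over the jejunal libraries, and called ratios past 2-fold. The text names the members called in a comparison, the 10 with the smallest p in full where more were called, and up to 4 genes of each other list by p, with Ctsd, Ctsk, Ctsl, Ctss, Lgmn, Psap and Lamp1 free to be given anywhere. One gene that the rule takes is not reported here. In the shallowest library 3 counts are 13.5 CPM and in the deepest 0.0434 CPM, for counting error only.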

Additional observations from a re-analysis of the deposited data

How the results depend on the processing

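Over the members called in a comparison, 2515 of 2701 repeats under an alternative kept the call, and also the direction where the test has one. The test for any difference, which is among them, has none. In 185 the call was lost with no change of direction. In 1 the direction reversed: Neu1 in spleen, at -0.56 with spleen library 2 alone (added after the data were seen). Numbers of members called moved by more than 1.5 times as follows. DESeq2 gave 4 for ileal node against 4 nodes (2 in the report), 3 for ceco-colonic node (0), 3 for ileal against ceco-colonic node (0), 26 for inguinal (13), 7 for super cervical (2) and 14 for deep cervical node (8). In these comparisons DESeq2 called 5.5%, 11.6%, 3.44%, 47.9%, 19.4% and 38.3% of all genes, in that order. Without the filter ceco-colonic node had 2 (4.06% of all genes were called) and super cervical node 4 (8.21%), and members higher in spleen fell from 4 to 1. RLE scaling gave 23 for inguinal node (42.1% of all genes), limma voom 20 for inguinal (41.3%) and 1 for super cervical node (12.9%). Libraries of at least 9000000 counts gave 18 for ileal node, and 10 CPM added gave 14 higher than isotype. With 10 CPM added 1233 of 11224 genes were higher than isotype and 900 lower. Members lower than isotype went from 5 to 1 without the ribosomal features and to 0 with 10 CPM added. Genes lower than isotype went from 2748 of 11224 to 1797 of 11221 without those features. When 1 jejunal library was left out, members lower than isotype ran from 0 to 7 and genes from 2769 to 3476. Leaving out 1 library gave 0 to 2 for ileal, 0 to 3 for ceco-colonic, 0 to 0 for ileal against ceco-colonic, 28 to 33 for spleen, 2 to 18 for inguinal, 0 to 6 for super cervical, 4 to 10 for deep cervical and 19 to 30 for mediastinal node, 23 to 33 for any difference, 0 to 0 for jejunal against iliac node and 16 to 24 for isotype. The shares of all genes called then ran from 1.39% to 3.51% for ileal, 0.226% to 10.4% for ceco-colonic and 49.4% to 60.3% for spleen. They ran from 13.1% to 38.9% for inguinal, 2.02% to 23.2% for super cervical, 18.7% to 36.8% for deep cervical and 23.5% to 48.5% for mediastinal node. For any difference they ran from 48.7% to 65%. Genes over 2-fold higher than isotype numbered 1728 to 3346 when 1 jejunal library was left out. The causes were not tested. RLE scaling also moved the median of all genes by over 0.1 for ceco-colonic (-0.06 to -0.21), inguinal (-0.14 to -0.32), super cervical (-0.03 to -0.15), deep cervical (-0.01 to 0.17), mediastinal (0.07 to 0.19) and jejunal against iliac node (0.03 to 0.34).

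Whether library numbers pair samples could not be decided. Deviations from the site means at deep sites had a median correlation of 0.02 over 63 same-numbered pairs, of which 19 were over 0.1. For 126 pairs of other numbers the median was -0.02, and 21 were over 0.1. A pairing by number was thus neither shown nor excluded. With the replicate block, calls numbered 2 for ileal, 0 for ceco-colonic, 32 for spleen, 16 for inguinal, 2 for super cervical, 10 for deep cervical and 28 for mediastinal node. The shares of all genes were 3.57%, 7.51%, 60.8%, 38.7%, 16.9%, 34.2% and 46.7%, in that order. Depth limits the shallow sites, where 33 members were not tested.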
